A study of Homo sapiens with 16 samples.

Results

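The small nucleolar RNA (snoRNA) host RNAs described here were 10 long non-coding RNAs chosen by name: GAS5, SNHG1, SNHG3, SNHG5, SNHG6, SNHG8, SNHG12, SNHG15, SNHG16 and ZFAS1. All 10 were found by symbol among the 60107 genes counted, and all 10 passed the filter on low counts in every comparison. Tags from the 3′ ends of cytoplasmic polyadenylated RNA were counted in 16 libraries of U2OS-TR cells, which derive from a human osteosarcoma and express the tetracycline repressor. Of these, 5 uninduced and 5 induced libraries came from the U2OS-TR/ΔN-RNMT line, and 3 untreated and 3 doxycycline-treated libraries came from the parental U2OS-TR line without the transgene. ΔN-RNMT is a catalytically inactive cap methyltransferase without its nuclear localization sequences, made from a doxycycline-inducible CMV promoter in a line that is 1 clone, and the study uses it to inhibit cap methylation in the cytoplasm. Treated cells received doxycycline 48 h after they were split and were collected 24 h later. The protocol label lists 1 μg/ml doxycycline for every library, and the untreated groups here follow the titles and the study's methods. The question was how these RNAs changed when ΔN-RNMT was induced, with doxycycline alone as the control.

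snoRNAs guide the chemical modification of ribosomal and other RNAs. In vertebrates most lie in introns and are cut out of the spliced intron of a host gene, while the joined exons leave the nucleus as a separate RNA. Box C/D snoRNAs guide ribose methylation and box H/ACA snoRNAs guide pseudouridylation. Many host RNAs begin with a terminal oligopyrimidine (TOP) tract, a C at the cap followed by further pyrimidines, as the mRNAs of ribosomal proteins do. The spliced RNA of several hosts, GAS5 among them, is known to be bound by ribosomes and degraded by nonsense-mediated decay, a pathway that removes RNAs with early stop codons.

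Start sequences are shown because the TOP tract lies next to the cap, the structure that ΔN-RNMT was made to affect. RefSeq promoters on GRCh38.p14 gave a start for 8 of the 10 members, and SNHG6 and SNHG15 had no entry. Each line holds 30 bases of the transcribed strand, 10 before the annotated start and 20 from it. The capitals mark the longest run of C and T that begins with C within 10 bases of the start.
GAS5 (chr1:173869026-173869055, reverse strand): tCatgaattcagatgtgtttattttggagc
SNHG1 (chr11:62855866-62855895, reverse strand): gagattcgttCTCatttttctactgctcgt
SNHG3 (chr1:28505933-28505962, forward strand): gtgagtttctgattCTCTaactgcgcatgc
SNHG5 (chr6:85678714-85678743, reverse strand): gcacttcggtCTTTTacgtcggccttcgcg
SNHG8 (chr4:118278752-118278781, forward strand): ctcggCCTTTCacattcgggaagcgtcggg
SNHG12 (chr1:28581854-28581883, reverse strand): gcttcagcgCCCTTTCTCCCCgccgcattc
SNHG16 (chr17:76557754-76557783, forward strand): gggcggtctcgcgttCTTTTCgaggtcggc
ZFAS1 (chr20:49278632-49278661, forward strand): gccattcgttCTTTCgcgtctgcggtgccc
A run of at least 5 bases was called TOP-like, and 5 of the 8 starts had one (62.5%): SNHG5, SNHG8, SNHG12, SNHG16 and ZFAS1. The same rule held for 33.3% of all 27305 starts, for 53.1% of 32 other annotated non-coding hosts and for 83.6% of 67 ribosomal protein genes. The runs of SNHG5, ZFAS1 and SNHG1 began at the annotated start itself, but that of SNHG1 was 3 bases long. The longest run was that of SNHG12, with 12 bases from 1 base before the start. The run of SNHG16 began at base 6, not at the start. That of SNHG8 began 5 bases before the start, so all but its last base lie before the annotated RNA. The GAS5 window lies outside the GENCODE gene model, which spans 173858559 to 173868882. The starts used for ZFAS1 and SNHG12 lie inside their RefSeq genes. A shorter run in a window says only that these letters are not next to this annotated start.

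The gene models differed in what they host. RefSeq placed 11 snoRNAs inside GAS5 (10 of them box C/D), 9 inside SNHG1, 4 inside SNHG12, 3 each inside SNHG16 and ZFAS1, 2 each inside SNHG3 and SNHG5, and 1 each inside SNHG6, SNHG8 and SNHG15. Those of SNHG1 included SNORD22 and SNORD25 to SNORD31, and those of ZFAS1 were SNORD12, SNORD12B and SNORD12C. SNHG3, SNHG8 and SNHG15 host only box H/ACA snoRNAs, SNHG12 hosts both classes, and GAS5 holds SNORA103 beside its box C/D snoRNAs. In GRCh38 the 4 members whose change passed the test lie as follows. SNHG1 lies on chromosome 11 from 62851978 to 62855953 on the reverse strand, with 11 exons in its canonical transcript. SNHG15 lies on chromosome 7 from 44983019 to 44986961 on the reverse strand, with 3 exons. SNHG16 lies on chromosome 17 from 76557727 to 76670985 on the forward strand, with 4 exons. ZFAS1 lies on chromosome 20 from 49278178 to 49299600 on the forward strand, with 5 exons.

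Transgene libraries held 12527183 to 23251834 gene counts and parental libraries 1473286 to 3214808, so the parental values carry more counting error. Tags outside genes were at 1.110 to 1.497 per gene count in parental libraries and at 0.0744 to 0.106 in transgene libraries. The mitochondrial share was 1.76% to 9.38% in parental libraries and 0.854% to 1.52% in transgene libraries. The labels were checked by RNMT, whose coding sequence the transgene carries in part. Its level was 55.6 to 112 CPM (counts per mega-count of a library, scaled within a line) in uninduced libraries and 266 to 458 CPM in induced libraries, with no overlap. The highest uninduced value, 112 CPM, was that of replicate 5. Whether the RNMT tags came from the transgene or from the endogenous RNMT gene was not tested. Of 9 bone-lineage markers, SPARC, COL1A1, RUNX2 and, at low counts, SPP1 were present in every library, while SP7 and BGLAP were at 0 in all 16. COL1A2 and IBSP reached at most 1 count in any library. Of 8 genes of other cell types, KRT8, EPCAM and, with at most 31 counts, CD68 were detected in every library and ADIPOQ in none. Of the 3 bone-lineage markers above the filter, RUNX2 rose with induction (log2 fold change 1.16, adjusted P = 0.0175, edgeR), while SPARC (0.05) and COL1A1 (0.00029) did not pass the test. Of the 2 others above it, the epithelial gene KRT8 fell (-0.40, adjusted P = 0.0424, edgeR) and EPCAM, also epithelial, was at 0.61 (adjusted P = 0.0772, edgeR). CDH1, below the filter, had means of 0.515 and 1.64 CPM. The part of these genes in the member values was not tested. Of the uninduced libraries, replicate 5 lay farthest in the direction of the change for 10 of 10 members, and for 70.7% of all genes tested. In SNHG5, SNHG8 and SNHG12 it lay beyond every induced library (89.5, 837 and 31.0 CPM). Uninduced replicate 3 lay least far in that direction for 10 of 10 members and for 55.6% of all genes. Results are therefore also given without these libraries. Each library was left out in turn by plan, but these were singled out by their values. A larger change without replicate 5 therefore follows in part from that choice.

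Induction of ΔN-RNMT was accompanied by a mixed response of the host RNAs. SNHG1 fell 2.86-fold and SNHG16 fell 1.32-fold, while ZFAS1 rose 3.09-fold and SNHG15 rose 2.11-fold. The other 6 did not pass the test. This made 4 of 10 members called, 2 higher and 2 lower, where 39.8% of the 13038 genes tested were called (20% higher and 19.8% lower), so the share of members called was that of all genes. The median log2 fold change was 0.51 over the members and 0.04 over all genes tested. The groups did not overlap for 1 of 10 members, SNHG16, against 7.3% of all genes (3.08% higher and 4.22% lower). In bulk libraries a change in RNA per cell and a change in the share of cells that hold the RNA cannot be told apart.

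SNHG1, host of a cluster of box C/D snoRNAs, showed the smallest adjusted P of the members. Its level was 310, 378, 642, 288 and 140 CPM in uninduced replicates 1 to 5. In induced replicates 1 to 5 it was 103, 220, 104, 106 and 82.1 CPM. Uninduced replicate 5 lay within the induced range, and the other 4 uninduced libraries lay above every induced library. The group means were 352 ± 184 CPM and 123 ± 55.3 CPM (SD, n = 5 each), giving a log2 fold change of -1.51 (standard error, SE, 0.38) with an adjusted P = 0.0177 (edgeR quasi-likelihood test, Benjamini-Hochberg). The call was made in 10 of 10 fits that left out 1 library, with log2 fold changes from -1.83 to -1.20. It was lost with 1 surrogate variable (-0.52, adjusted P = 0.126, edgeR), a setting in which 1 gene in all was called.

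SNHG16, which hosts the SNORD1 snoRNAs, was the member whose groups did not overlap. It stood at 206, 221, 270, 207 and 193 CPM in uninduced replicates 1 to 5 and at 163, 186, 148, 148 and 189 CPM in induced replicates 1 to 5. All uninduced libraries were thus above all induced libraries, by a small margin between 193 and 189 CPM. The log2 fold change was -0.40 (SE 0.15, adjusted P = 0.0494, edgeR). The call was made in 3 of 10 fits with 1 library left out. Scaled by total counts alone, where the median of all genes was 0.28, the log2 fold change was -0.15 (adjusted P = 0.349, edgeR).

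ZFAS1, host of the SNORD12 snoRNAs, showed the largest rise among the members. In uninduced replicates 1 to 5 it was at 49.0, 46.1, 23.2, 72.6 and 268 CPM. In induced replicates 1 to 5 it was at 401, 109, 379, 275 and 251 CPM. Uninduced replicate 5 lay within the induced range and the other 4 lay below every induced library. The means were 91.7 ± 99.8 and 283 ± 117 CPM (SD, n = 5 each), with a log2 fold change of 1.63 (SE 0.60, adjusted P = 0.0477, edgeR). Without uninduced replicate 5, singled out by its values, the log2 fold change was 2.55 (adjusted P = 0.000468, edgeR). That larger change follows in part from the choice of library. The call was made in 2 of 10 fits with 1 library left out.

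SNHG15 hosts SNORA9, a box H/ACA snoRNA. Its level was 7.41, 4.15, 3.89, 6.97 and 16.4 CPM in uninduced replicates 1 to 5 and 19.8, 9.03, 17.6, 17.0 and 18.9 CPM in induced replicates 1 to 5. Induced replicate 2 was the lowest of its group and uninduced replicate 5 the highest of its own, and these 2 libraries made the groups overlap. The log2 fold change was 1.08 (SE 0.38, adjusted P = 0.0411, edgeR), and the call was made in 2 of 10 fits with 1 library left out.

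**Figure D1:**
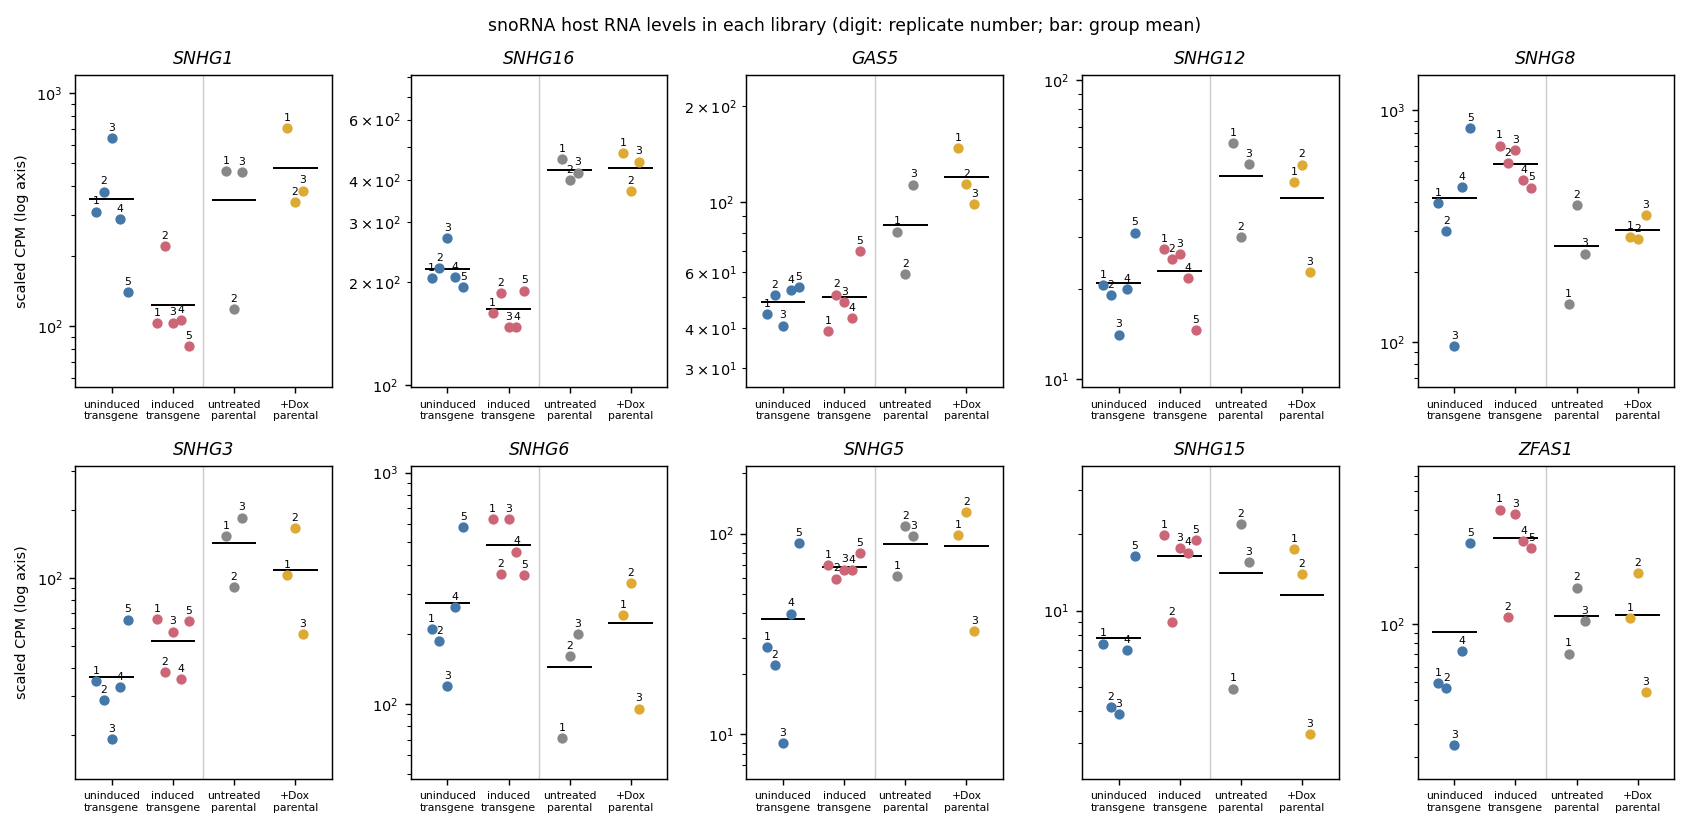
Scaled CPM (log axis) of each of the 10 host RNAs in every library, with the replicate number at each point and a bar at the group mean. The transgene and parental lines were scaled separately. In the ZFAS1 panel uninduced replicate 5, at 268 CPM, sits among the induced libraries, and in the SNHG16 panel the uninduced points all lie above the induced ones.

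Among the hosts of only or mostly box C/D snoRNAs that did not pass the test, SNHG5 and SNHG6 had higher means after induction. SNHG5, host of SNORD50A and SNORD50B, was at 27.1, 22.04, 9.003, 39.8 and 89.5 CPM in uninduced replicates 1 to 5 and at 59.6 to 80.2 CPM in the induced libraries. Apart from replicate 5, the uninduced libraries lay below every induced one, and the log2 fold change was 0.86 (95% interval -0.13 to 1.85, adjusted P = 0.138, edgeR). SNHG6, host of SNORD87, was at 210, 187, 119, 263 and 580 CPM in uninduced replicates 1 to 5 and at 362 to 629 CPM in the induced ones. Its log2 fold change was 0.84 (95% interval 0.03 to 1.66, adjusted P = 0.0848, edgeR). GAS5, known as a growth arrest transcript and the host with the most snoRNAs here, had 48.5 ± 5.73 and 50.4 ± 11.97 CPM (SD, n = 5 each). The log2 fold change of GAS5 was 0.05, with a 95% interval of -0.33 to 0.44, and the groups overlapped.

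The remaining H/ACA and mixed hosts did not pass the test either. SNHG8, host of SNORA24, was at 95.5 to 837 CPM in uninduced and 463 to 702 CPM in induced libraries, with a log2 fold change of 0.48 (95% interval -0.43 to 1.39). SNHG3, host of SNORA73A and SNORA73B, was at 19.3 to 65.4 CPM in uninduced and 35.5 to 65.6 CPM in induced libraries. Its log2 fold change was 0.53 (95% interval -0.14 to 1.20). SNHG12 had 21.0 ± 6.16 and 23.0 ± 5.15 CPM (SD, n = 5 each) and a log2 fold change of 0.13 (95% interval -0.37 to 0.63). In SNHG8 the lowest and the highest library were both uninduced, replicates 3 and 5.

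**Figure D2:**
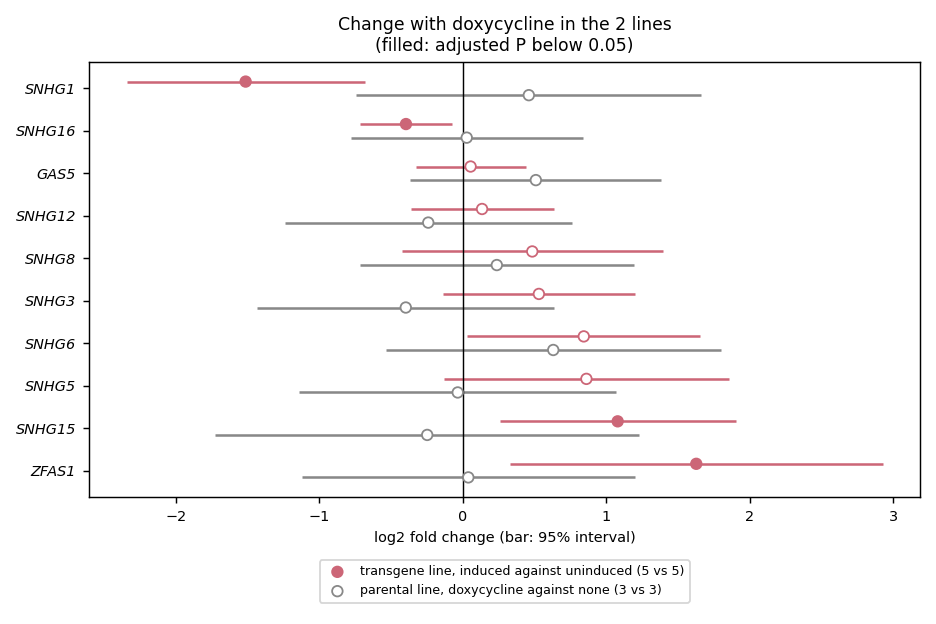
Log2 fold changes with 95% intervals for the 10 host RNAs, for induction in the transgene line (5 against 5 libraries) and for doxycycline in the parental line (3 against 3). Filled points passed an adjusted P of 0.05, which in the transgene line were SNHG1 and SNHG16 below 0 and SNHG15 and ZFAS1 above it, and in the parental line none.

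The number of members called depended on which libraries were used. Without uninduced replicate 5, singled out by its values, 8 of 10 members were called, 6 higher and 2 lower. In that fit 58.5% of all genes were called (31.2% higher and 27.4% lower). The 4 members added to those named above were SNHG3, SNHG5, SNHG6 and SNHG8, all higher, with log2 fold changes of 0.84, 1.46, 1.31 and 0.88. With uninduced replicates 3 and 5 both left out, a choice made after seeing the data, 8 of 10 were called again, against 55.3% of all genes. SNHG1 was the single member called without uninduced replicate 1, 2, 3 or 4, against 19.6%, 16.6%, 28.8% and 25.3% of all genes, and without induced replicate 1, 3 or 4, against 14.3%, 17.6% and 14.5%. Without induced replicate 5, 2 members were called, against 28.6%, and without induced replicate 2, 4 were, against 48.8%. GAS5 and SNHG12 were called in none of the 10 fits.

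**Figure D3:**
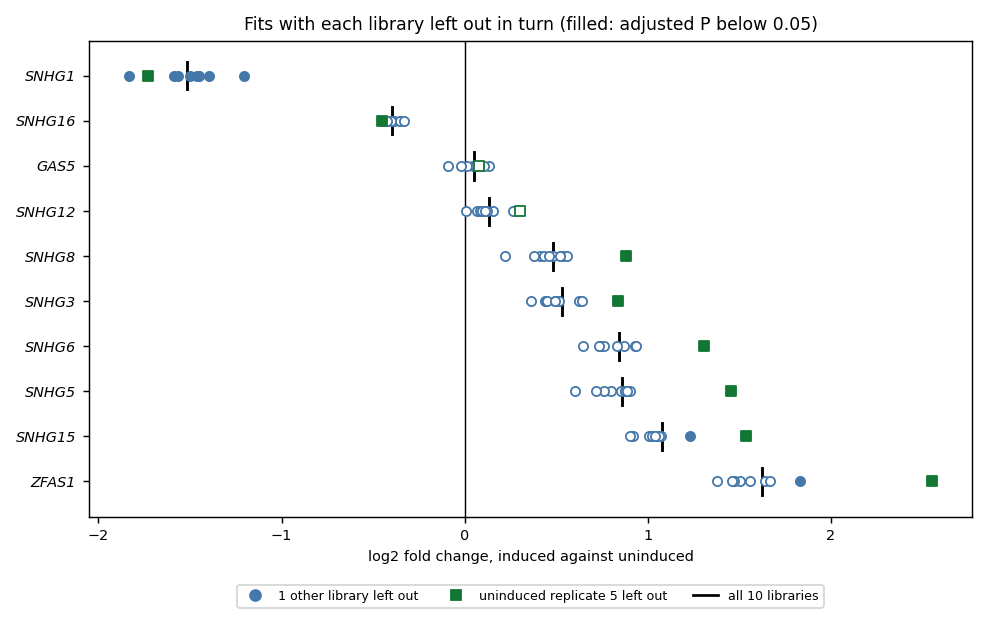
Log2 fold change of each host RNA, induced against uninduced, with each of the 10 libraries left out in turn (points), and with all of them (black bar). Filled points passed an adjusted P of 0.05. SNHG1 passed in every fit, between -1.83 and -1.20, and without uninduced replicate 5 (squares) ZFAS1 reached 2.55.

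In the parental line doxycycline called 0 of 10 members, where edgeR called 0% of the 9124 genes tested (0 genes, with 267 at an unadjusted P below 0.05) and DESeq2 called 1 gene. All 10 members had an adjusted P of 0.997 (edgeR), and the groups overlapped for all 10, where those of 9.52% of all genes did not (4.87% higher and 4.66% lower). SNHG1 was at 464, 118 and 458 CPM untreated and at 707, 341 and 382 CPM with doxycycline, with a log2 fold change of 0.46 (95% interval -0.74 to 1.66). ZFAS1 was at 70.1, 156 and 104 CPM untreated and at 108, 185 and 44.005 CPM treated, with a log2 fold change of 0.04 (95% interval -1.12 to 1.20). SNHG16, the most even of the members in this line, was at 460, 398 and 420 CPM untreated and at 479, 370 and 452 CPM treated. SNHG15 was at 3.26 to 21.9 CPM over the 6 libraries, with only 4 to 52 counts behind each value. The 95% interval was -1.73 to 1.23 for SNHG15 and -0.78 to 0.83 for SNHG16. In the transgene line the intervals were -2.34 to -0.68 for SNHG1, -0.72 to -0.08 for SNHG16, 0.26 to 1.90 for SNHG15 and 0.33 to 2.93 for ZFAS1. Those of the 2 lines overlapped for SNHG15, SNHG16 and ZFAS1, and for SNHG1 by a small margin. The parental libraries were sequenced at another facility and instrument with another read length, so line and facility cannot be told apart. MALAT1, a nuclear-retained RNA, had parental means of 745 CPM untreated and 125 CPM with doxycycline, without overlap of the groups. Its log2 fold change was -2.57 in the parental line (adjusted P = 0.997, edgeR) and 0.03 with induction. NEAT1, also nuclear-retained, was at -0.50 in the parental line, with overlap. The part of nuclear RNA in the parental member values was not tested.

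The difference between the lines in the response to doxycycline was tested directly. None of the 10 members was called (0 of 10, against 2.98% of 12265 genes, 0.775% with a higher and 2.2% with a lower response in the transgene line). SNHG1 came nearest, with a difference in log2 fold change of -2.20 (SE 0.71, 95% interval -3.69 to -0.71, adjusted P = 0.0788, edgeR). That of ZFAS1 was 1.42 (95% interval -0.40 to 3.24, adjusted P = 0.301), that of SNHG15 was 1.13 (adjusted P = 0.318) and that of SNHG16 was -0.65 (adjusted P = 0.178). SNHG1 was called in 3 of 16 fits with 1 library left out and by DESeq2 (adjusted P = 0.0290). ZFAS1 was called only without uninduced replicate 5, the library singled out by its values (2.26, adjusted P = 0.0276, edgeR).

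Other non-coding snoRNA hosts were compared with the members. Of 17 tested from a list of 20, 1 rose and 5 fell, with a median log2 fold change of 0.24. The 6 called of 17 stand against 39.8% of all genes. SNHG29 fell from 1414 ± 169 to 802 ± 139 CPM (SD, n = 5 each), without overlap of the groups (log2 fold change -0.82, adjusted P = 0.0175, edgeR). SNHG9 and SNHG25 fell by 1.14 and 1.13 on the log2 scale, SNHG11 by 0.87 and SNHG19 by 0.64. SNHG25 is in a list the study chose on these samples, so its fall is not independent evidence. The other values of the transgene line come from the same samples, so they are not independent of the study's results either. SNHG14 was the one that rose, by 0.60. EPB41L4A-AS1 (-0.39) and SNHG32 (0.89) did not pass the test. Of all 25 annotated non-coding hosts other than the members, 1 rose and 9 fell, with a median of 0.05. Of 1017 genes annotated as lncRNA, 78 rose and 236 fell, with a median of -0.22. Among all genes tested, 20% rose and 19.8% fell.

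Protein-coding hosts outside the ribosomal proteins changed in both directions, with 4 of 22 higher, 4 lower and a median of -0.15, where 20% of all genes were higher and 19.8% lower. Of all 192 annotated protein-coding hosts tested, 49 rose and 26 fell, with a median of 0.21. TAF1D (1.16), EIF4A2 (0.88), IPO7 (0.84) and MRPL3 (0.83) rose, while TNPO2 (-1.17) and SF3B3 (-1.06) fell most. EIF4A2 encodes an RNA helicase of translation initiation and IPO7 a nuclear import receptor. Of the hosts whose mRNAs carry TOP tracts, TPT1 and EEF1B2 had log2 fold changes of -0.22 and -0.24 and did not pass the test. EEF2, another of them and named after its values were seen, fell by 0.54 (1693 ± 246 to 1167 ± 185 CPM, SD, n = 5 each, adjusted P = 0.0281, edgeR), without overlap of the groups. RACK1 of the same list, also named after its values were seen, went the other way without passing the test. Its log2 fold change was 0.54 (736 ± 245 to 1069 ± 240 CPM, SD, n = 5 each, adjusted P = 0.0832, edgeR).

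Proteins that build or hold snoRNPs gave 5 of 18 higher and 4 lower, against 20% and 19.8% of all genes, with a median of 0.23. Fibrillarin (FBL), the methyltransferase of box C/D snoRNPs, fell by 1.09 (1042 ± 392 to 489 ± 93.1 CPM, SD, n = 5 each, adjusted P = 0.0175, edgeR). NHP2, a core protein of box H/ACA snoRNPs, fell by 0.79. The other 2 falls, named after their values were seen, were SNU13, a box C/D core protein (-0.71, groups without overlap), and RUVBL2, the partner of RUVBL1 (-0.64). The assembly factors NAF1 (1.44) and NUFIP1 (1.01), the H/ACA core protein GAR1 (1.00) and the AAA ATPase RUVBL1 (0.86) rose. DKC1, the pseudouridine synthase, did not pass the test at -0.12.

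Genes of nonsense-mediated decay were examined because the spliced RNA of several snoRNA hosts is known as a substrate of that pathway. Of 18 factors, 4 rose and 2 fell with a median of 0.18, where 39.8% of all genes were called. PNRC2 (2.13), SMG5 (0.95) and the exonuclease XRN1 (0.67) were among the rises, and SMG9 (-0.89) and SMG6 (-0.47) fell. Of 15 endogenous decay targets, 6 rose and 4 fell with a median of 0.40, where 20% of all genes rose and 19.8% fell. GADD45B (1.12), ATF3 (0.95) and SRSF7 (0.77) were among the rises, and ASNS (-1.08) and ARC (-0.76) among the falls. Counts per gene do not separate the isoforms of a target, so they do not show which isoforms changed. SMG5 is in both lists. Of 9 proteins that bind or regulate TOP RNAs, 2 rose and none fell (median 0.36, against 39.8% of all genes called): SSB, the La protein, by 0.72, and TIA1 by 0.60. LARP1, which binds the TOP tract and cap, had a log2 fold change of 0.60 and an adjusted P of 0.0502 (edgeR). In the parental line 0 genes of these lists were called, but 0 of all 9124 genes tested were, so no list could have differed.

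**Figure D4:**
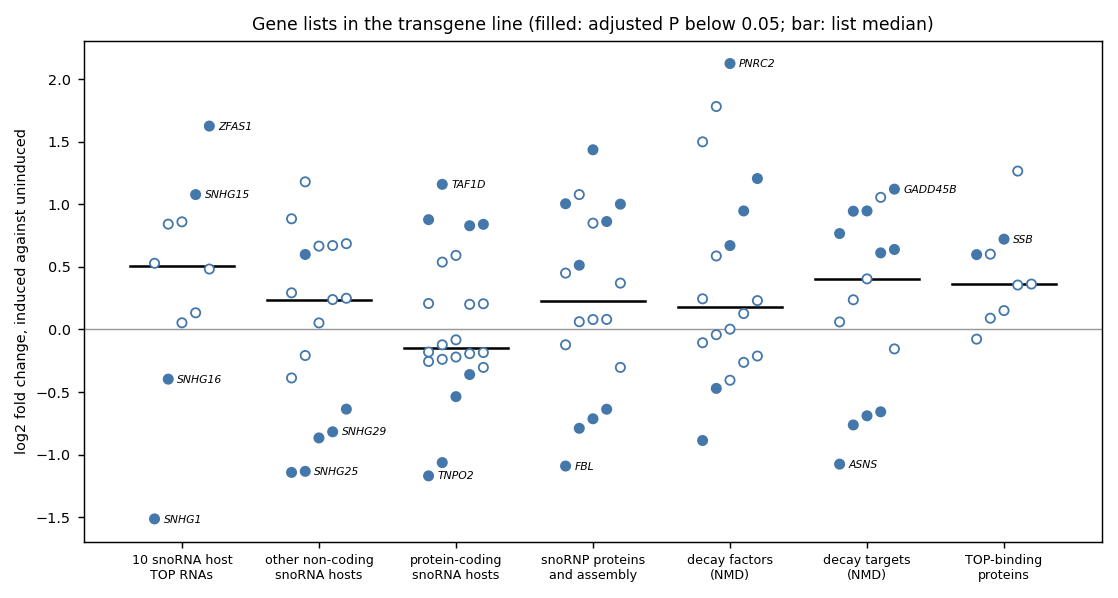
Log2 fold change, induced against uninduced, of each tested gene in 7 lists (points), with a bar at each list median. Filled points passed an adjusted P of 0.05. The members span -1.51 (SNHG1) to 1.63 (ZFAS1), and every list except the TOP-binding proteins holds genes that passed in both directions.

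Some members share ground with neighbours, and whether the counting used strand is not given in the sources used here. SNHG3 shares 242 exonic bases on the same strand with RCC1, whose log2 fold change was 2.38 (adjusted P = 0.0696, edgeR). ZFAS1 shares 249 exonic bases with ZNFX1 on the opposite strand (-0.66, adjusted P = 0.0571, edgeR), the direction opposite to its own. SNHG8 overlaps PRSS12 (0.39) and SNHG12 overlaps TRNAU1AP (0.03), both on the opposite strand. In the shared bases, tags of the opposite-strand pairs cannot be separated without strand, and strand would not separate SNHG3 from RCC1. The summary entry for ambiguous tags stood at 0.0127 to 0.0195 per gene count in transgene libraries. By GENCODE, 23 snoRNA genes inside the members are among the genes counted. They held 121 counts over all 16 libraries, against 338011 on the members, and 18 of the 23 were at 0 throughout. GENCODE placed 0 snoRNAs inside GAS5, so the snoRNAs that RefSeq placed there are not covered.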

How the data were processed

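Cytoplasmic RNA was sequenced with QuantSeq REV, and the authors deposited whole-number counts per Ensembl gene, not normalized, made with the Lexogen pipeline for GRCh38. Aligner, annotation release, strand use and duplicate handling are not given in the sources used here. Each library lists 60107 genes, 92 spike-in entries at 0 and 5 summary entries left out of library sizes. GENCODE 44 named 56104 genes. The members, lists and tests were chosen with earlier results of these data known. Named genes were the 10 members, RNMT, overlapping neighbours and, per list, at most 6 called genes with the largest change plus the 2 highest not called. A few genes that this rule takes are not reported here.

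The base mean had to exceed 20 for a gene to enter the edgeR 4.0.16 quasi-likelihood test (R 4.3.3), with TMM scaling and P values adjusted by Benjamini-Hochberg, and those below 0.05 were called. Standard errors are the log2 fold change over the square root of F, and 95% intervals use its t quantile. CPM are TMM-scaled within each line. The 5 transgene replicates are described as biological and the 3 parental ones as separate cultures. Alternatives were DESeq2 1.42.0, its size factors, total counts, 2 filters, a replicate block, offsets for GC content, 1 surrogate variable (sva 3.50.0) and each library left out. Same-numbered deviations had a mean correlation of 0.0260 (transgene, range -0.37 to 0.63) and -0.0598 (parental, range -0.42 to 0.24). Libraries were treated as unpaired, but so few pairs cannot decide whether the numbers pair them. No replicate pair agreed within sampling noise (chi-square over its degrees of freedom at least 4.26 in 26 pairs). Scripts were tested on simulated data. Python 3.11.15 drew figures.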

Additional observations from a re-analysis of the deposited data

Results flagged for a closer look

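In the 20 groups of 5 libraries formed by the members, 4 held a library far from the other 4. Chance gives about 1 in 20 for independent groups, but these groups come from the same 10 libraries. The number flagged can therefore not be read against that rate. All 4 flags fell on uninduced replicate 5 and induced replicate 2. ZFAS1 was at 268 CPM in uninduced replicate 5, above the other uninduced libraries. SNHG15 was at 16.4 CPM in uninduced replicate 5, also above the others, and at 9.03 CPM in induced replicate 2, below the others. SNHG1 was at 220 CPM in induced replicate 2, above the others. RNMT was at 112 CPM in uninduced replicate 5, the highest of its group, and at 360 CPM in induced replicate 2, within the induced range of 266 to 458 CPM. The part of these libraries' RNMT levels in the member values was not tested.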

How the results depend on the processing

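With 1 library left out, between 1 and 8 members and between 1869 and 7604 genes were called for induction, 8 of 10 members without uninduced replicate 5 and 8 with uninduced replicates 3 and 5 both out. With 1 surrogate variable 0 members and 1 gene were called, and in that setting the log2 fold changes of GAS5 (-0.042), SNHG12 (-0.20), SNHG3 (-0.067) and SNHG8 (-0.25) reversed. That of GAS5 was also -0.12 with GC offsets and -0.15 with GC offsets and replicate block, and ranged from -0.093 to 0.13 with 1 library left out. The replicate block gave 4 members called, with SNHG5 gained (adjusted P = 0.0379, edgeR) and SNHG16 lost (0.0964). Without the filter SNHG16 was lost too, and with GC offsets ZFAS1 was (adjusted P = 0.0608, edgeR). Over the 9 alternatives other than a library left out, SNHG1 and SNHG15 were called in 8, ZFAS1 in 7 and SNHG16 in 4.

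For the difference between lines 0 to 2 members and 0 to 2290 genes were called with 1 library left out. Against 365 genes, DESeq2 called 1489 and 1 member, its size factors 236 genes, filterByExpr 3, no filter 150, the replicate block 222, GC offsets with the replicate block 194, 1 surrogate variable 1175, and both uninduced replicates 3 and 5 left out 1510 and 1 member. SNHG6 reversed with 1 surrogate variable (-0.25), GC offsets (-0.15) and GC offsets with the block (-0.075), SNHG8 likewise (-0.019, -0.31 and -0.15), and SNHG12 with 1 surrogate variable (-0.0013). With 1 library left out SNHG6 ranged from -0.33 to 0.55, SNHG8 from -0.25 to 0.48 and SNHG12 from -0.089 to 0.53.

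In the parental line 0 members were called in every alternative, and genes called were 0 to 2 with 1 library left out, 1 with DESeq2 and 10 without the filter. Reversals there were SNHG16 with total counts (-0.13), SNHG5 without the filter (0.017) and ZFAS1 with total counts (-0.037), GC offsets (-0.0091), the replicate block (-0.10), both (-0.12) and 1 surrogate variable (-0.46). Ranges with 1 library left out crossed 0 for SNHG5 (-0.40 to 0.31), SNHG12 (-0.43 to 0.044), SNHG15 (-0.66 to 0.24), SNHG16 (-0.051 to 0.18) and ZFAS1 (-0.49 to 0.45). The causes of these shifts were not tested.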

Other observations

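The ratio of ZFAS1 to SNHG1 counts within a library, a pair chosen after their values were seen and so given without a test, was 0.158, 0.122, 0.0361, 0.252 and 1.91 in uninduced replicates 1 to 5. In induced replicates 1 to 5 it was 3.90, 0.495, 3.66, 2.59 and 3.07. The highest uninduced ratio was that of replicate 5 and the lowest induced ratio that of replicate 2. In the parental line the ratio was 0.151, 1.32 and 0.227 untreated and 0.153, 0.544 and 0.115 with doxycycline, so 1 untreated library lay above the others.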
